A study of Mus musculus with 19 samples.

Results

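Flnc, Xirp1, Xirp2, Lmod2, Lmod3, Nrap, Bag3 and Mustn1 are described here as genes of Z-disc and thin filament remodelling in mouse skeletal muscle. They were chosen by symbol, as every probe set of the deposited table annotated to 1 of these 8 genes alone, with the results of comparing HSALR and wild-type muscle already known. Their differences between the groups are therefore given as a description, without a test. The rule found 8 probe sets of 7 genes among the 45101 probe sets of the table. Flnc had 2 probe sets, the other measured genes 1 each, and no probe set was annotated to Xirp2 alone, so that gene was not analysed here. All 8 probe sets passed the filter on dim probe sets, which kept 22519. The muscle was the EDL (extensor digitorum longus), which lies in the lower hind leg and is made mostly of fast fibres, from 19-week-old FVB mice. The 10 HSALR samples were labelled transgenic HSALR line 20 b, and the 9 others were wild type, each on 1 one-colour Affymetrix array. The HSALR transgene is a human skeletal actin gene, with its own regulatory sequence, into which a long CTG repeat was placed, and the mice are used as a myotonic dystrophy model. They therefore model a repeat RNA made in skeletal muscle, and only 1 transgenic line was used. Whether each sample is a separate animal is not stated in the labels, and the p-values below cover only the spread among these samples, technical spread included.

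The Z-disc is the plate that bounds each sarcomere and anchors the barbed ends of the actin thin filaments, while leiomodins and tropomodulins act at the opposite, pointed ends. Filamin C (Flnc) crosslinks actin at the Z-disc and the sarcolemma, and Xin (Xirp1) is an actin-binding partner of filamin C found at muscle attachments and at sites of myofibril damage. Filamin unfolded by mechanical load is cleared by chaperone-assisted selective autophagy, in which the co-chaperone Bag3 works with Hsp70 and the small heat shock protein Hspb8. Nrap is a nebulin-related anchoring protein of growing myofibrils and myotendinous junctions. Mustn1 encodes a small protein expressed in musculoskeletal development and regeneration. It is not established as a Z-disc protein, so the name given to the group fits it less well than the others.

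The promoter sequences of 5 measured genes are shown because some of these genes differed together between the groups and others did not. They are the 250 bases before the annotated start, 5′ to 3′ on the gene's strand, from RefSeq on GRCm38.p6. Capitals mark matches to the motifs searched on both strands. The windows are chr14:30879007-30879256 (plus strand) for Mustn1, chr6:29432903-29433152 (plus strand, the first of 2 annotated starts) for Flnc, chr6:24597521-24597770 (plus strand) for Lmod2, chr19:56390039-56390288 (minus strand) for Nrap and chr7:128523333-128523582 (plus strand) for Bag3.
Mustn1: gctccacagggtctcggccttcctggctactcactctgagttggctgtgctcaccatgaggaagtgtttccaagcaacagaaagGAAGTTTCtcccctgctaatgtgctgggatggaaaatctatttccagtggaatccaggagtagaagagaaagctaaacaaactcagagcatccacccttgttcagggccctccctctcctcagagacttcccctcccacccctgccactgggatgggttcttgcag
Flnc: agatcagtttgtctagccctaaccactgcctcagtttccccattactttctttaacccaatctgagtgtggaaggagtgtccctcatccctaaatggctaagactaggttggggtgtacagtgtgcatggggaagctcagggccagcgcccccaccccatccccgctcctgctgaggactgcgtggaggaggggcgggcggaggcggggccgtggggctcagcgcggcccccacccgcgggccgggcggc
Lmod2: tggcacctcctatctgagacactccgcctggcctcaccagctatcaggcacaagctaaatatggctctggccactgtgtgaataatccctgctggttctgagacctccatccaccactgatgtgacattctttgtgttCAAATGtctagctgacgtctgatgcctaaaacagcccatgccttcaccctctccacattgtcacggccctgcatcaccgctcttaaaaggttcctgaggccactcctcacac
Nrap: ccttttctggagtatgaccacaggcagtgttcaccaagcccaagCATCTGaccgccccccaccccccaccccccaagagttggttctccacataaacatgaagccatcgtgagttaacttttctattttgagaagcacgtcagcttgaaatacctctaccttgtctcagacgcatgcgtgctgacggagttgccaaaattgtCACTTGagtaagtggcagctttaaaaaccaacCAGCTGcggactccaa
Bag3: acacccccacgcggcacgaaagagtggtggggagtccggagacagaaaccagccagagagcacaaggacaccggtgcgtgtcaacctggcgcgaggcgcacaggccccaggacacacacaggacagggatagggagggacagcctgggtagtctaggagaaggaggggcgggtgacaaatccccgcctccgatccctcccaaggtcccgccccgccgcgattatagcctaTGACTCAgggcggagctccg

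The motif searches covered 32851 promoter windows of the same length, and 6 of the 8 genes had a window (Xirp1 and Lmod3 are named only). The Mustn1 window held a match to the heat shock pattern, written as GAANNTTC or TTCNNGAA, from 166 to 159 bases before the start, as did 12.8% of all windows. Lmod2 held 1 E-box (CANNTG, the site of myogenic bHLH factors) from 112 to 107 bases before the start, and Nrap held 3, at 206 to 201, 48 to 43 and 16 to 11 bases before it. An E-box was present in 66.2% of all windows. Bag3 held an AP-1 pattern (TGANTCA) from 20 to 14 bases before its start, and the pattern was present in 6.75% of all windows. AP-1 was in 2 of the 6 windows and an E-box in 3 of the 6, with that of Xirp2 among them for both. The Flnc window held none of the motifs. The CArG box, read by serum response factor and searched as CCWWWWWWGG (W for A or T), was in 0 of the 6 windows and in 1.47% of all. MCAT (CATTCC, the TEAD site) was in 0 of the 6 and in 12.6% of all. The MEF2 site, searched as YTAWWWWTAR (Y for C or T, R for A or G), was in 1 of the 6, that of Xirp2, and in 2.92% of all. Only full matches to each pattern were counted, so sites that differ from it by a base are not covered. These matches describe letters in the window and no binding was measured.

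Array and tissue measures that bear on the genes were as follows. Per array, the median log2 signal over tested probe sets spanned 7.30 to 7.96 in HSALR and 7.56 to 7.95 in wild type. The control probe sets of actin and Gapdh gave a log2 3′/5′ ratio, a measure of RNA integrity, that averaged -0.11 ± 0.04 over the HSALR and -0.06 ± 0.05 over the wild-type samples (SD, n = 10 and 9). Of 12 fast fibre markers 0 passed the test, and their summed signal was 135820 to 163658 in HSALR and 144909 to 163621 in wild type, so the markers of the labelled muscle were bright in every sample. Of 9 slow fibre markers 0 passed, with sums of 3273 to 18065 (median 10751) in HSALR and 3123 to 32813 (median 15856) in wild type. The log2 folds of all 9 were below 0, from -0.74 (Tnnc1) to -0.01 (Casq2). HSALR replicates 9 and 10 stood apart. They were the most alike pair (Spearman correlation 0.978 across probe sets, against 0.953 to 0.969 for the closest partner of every other sample). Their summed signal of 15 macrophage markers was 24524 and 28079, against at most 11956 in the other HSALR samples and 8408 in wild type. Their fibroblast marker sums of 64468 and 65985 exceeded the 41313 and 35340 reached in the other HSALR samples and in wild type. The median macrophage sum was 9517 in HSALR and 6066 in wild type, so further HSALR samples also exceeded the wild-type maximum. Leaving out replicates 9 and 10 therefore does not remove every such sample. The median fibroblast sum was 28111 in HSALR and 26194 in wild type. Of the 14 macrophage markers tested 2 were higher in HSALR (Cd68 and Lgals3), and of the 11 fibroblast markers 1 was (Pdgfra). Of 6 regenerating muscle markers tested 2 were higher (Myog and Ncam1), with sums of the whole list of 1320 to 2200 in HSALR and 1241 to 1886 in wild type. Of 8 endothelial and smooth muscle markers tested 1 was higher (Tagln), with list sums of 3661 to 7113 in HSALR and 3463 to 5497 in wild type. No marker was at 0. The folds of the members and of the list genes that passed are therefore given with and without HSALR replicates 9 and 10. In whole muscle fewer cells of a type and less RNA per cell cannot be told apart.

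Of the 8 probe sets, 5 were past a false discovery rate of 0.05 in limma (Benjamini-Hochberg over all tested probe sets), all 5 higher in HSALR. They belong to 4 genes, Mustn1, Xirp1, Flnc and Lmod2, while those of Bag3, Nrap and Lmod3 were not past it. Over all tested probe sets 5.06% passed, 2.86% higher in HSALR and 2.2% lower (645 and 495). After quantile normalization 14.8% passed, 6.47% higher and 8.37% lower (1457 and 1884), and when the 3′/5′ ratio was a covariate 9.63% passed, 7.57% higher and 2.06% lower. The genes were picked from this same contrast, so nothing is read from their count. It was 5 under each of 11 other settings and with any of the 19 samples left out.

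Among the partners at the Z-disc and sarcolemma, the brighter Flnc probe set (1447812_x_at) had a signal of 1608 at the lowest, 2186 at the median and 3739 at the highest HSALR sample, against 931 at the lowest, 1311 at the median and 1592 at the highest wild-type sample. The groups did not overlap, which was so in this direction for 0.36% of tested probe sets (81). The mean was 2363 ± 668 in the HSALR group and 1283 ± 191 in the wild-type group (SD, n = 10 and 9), a log2 fold of 0.84 ± 0.14 (SE) or 1.79-fold. After quantile normalization 8 of 10 HSALR samples, in place of 10, exceeded every wild-type sample. The suffix of this probe set marks probes that can match other transcripts as well, so the other probe set is given beside it.

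The dimmer Flnc probe set (1449073_at) had 1220, 2008 and 4276 at the lowest, median and highest HSALR sample, against 776, 1248 and 1753 in wild type. Here 8 of 10 HSALR samples exceeded every wild-type sample and the groups overlapped. Its log2 fold of 0.79 ± 0.19 (SE, 1.73-fold) lay within the error of that of the brighter probe set. The log2 signals of the probe sets correlated across samples with r = 0.97 in HSALR (n = 10) and r = 0.80 in wild type (n = 9), values that describe 2 probe sets of 1 transcript on the same arrays. Replicate 3 was the highest HSALR sample on both and replicate 7 the lowest. Leaving out replicate 3 gave log2 folds of 0.76 and 0.68 for the brighter and the dimmer probe set, and leaving out replicates 9 and 10 gave 0.91 and 0.86.

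Xirp1 (1419220_at) ranged from 668 to 2308 in HSALR with a median of 1319, and from 378 to 1060 in wild type with a median of 674. The groups overlapped, with replicate 7 the lowest in HSALR and replicate 2 the highest in wild type, and 8 of 10 HSALR samples exceeded every wild-type sample. The mean was 1395 ± 477 in the HSALR group and 678 ± 201 in the wild-type group (SD, n = 10 and 9), a log2 fold of 1.01 ± 0.20 (SE) or 2.01-fold. Xirp1 thus had a larger fold than its partner Flnc, by an amount close to the errors of both. The log2 fold was 0.94 after quantile normalization and 1.00 without HSALR replicates 9 and 10.

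Nrap (1421253_at) differed little between the groups. It ranged from 2530 to 4584 in HSALR with a median of 3512, and from 2769 to 3857 in wild type with a median of 3411. The HSALR range enclosed the whole wild-type range, with 2 HSALR samples below it and 1 above. Of 10 HSALR samples 6 exceeded the wild-type median as deposited, and 2 after quantile normalization. The mean was 3449 ± 598 in the HSALR group and 3403 ± 373 in the wild-type group (SD, n = 10 and 9). The log2 fold was 0.01 ± 0.10 (SE), and its sign turned in 12 of 30 alternatives, which gave -0.08 to 0.05, the lowest after quantile normalization. Leaving out HSALR replicates 9 and 10 gave 0.00, and leaving out replicate 8, the highest sample, -0.04.

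Of the leiomodins, which nucleate actin at the pointed ends, Lmod2 and Lmod3 had different values. Lmod2 (1452345_at) ranged from 1085 to 2665 in HSALR with a median of 1997, and from 669 to 1585 in wild type with a median of 1243. Of 10 HSALR samples 8 exceeded every wild-type sample, and replicate 1 was the lowest of the group. The mean was 1978 ± 488 in the HSALR group and 1201 ± 301 in the wild-type group (SD, n = 10 and 9), a log2 fold of 0.71 ± 0.17 (SE) or 1.64-fold. It was 0.66 after quantile normalization, where 9 of 10 HSALR samples exceeded every wild-type sample, and 0.67 without HSALR replicates 9 and 10.

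Lmod3 (1439658_at) ranged from 1276 to 2502 in HSALR with a median of 1545, and from 1484 to 2225 in wild type with a median of 1725. The groups overlapped, with 4 HSALR samples below every wild-type sample and 1, replicate 8, above every one. The mean was 1648 ± 374 in the HSALR group and 1744 ± 229 in the wild-type group (SD, n = 10 and 9), a log2 fold of -0.10 ± 0.12 (SE). Replicates 9 and 10 were among the lowest at 1334 and 1276, and without them the fold was -0.02. After quantile normalization it was -0.17.

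Bag3 (1422452_at), the co-chaperone of filamin turnover, ranged from 1495 to 2617 in HSALR with a median of 1882, and from 1406 to 2042 in wild type with a median of 1645. Of 10 HSALR samples 4 exceeded every wild-type sample and 7 the wild-type median, so the groups overlapped widely. The mean was 1938 ± 349 in the HSALR group and 1677 ± 195 in the wild-type group (SD, n = 10 and 9), a log2 fold of 0.19 ± 0.11 (SE) or 1.14-fold. Its log2 fold was 0.15 without HSALR replicates 9 and 10. After quantile normalization it was 0.13, with 2 HSALR samples over the whole wild-type range and 9 over the wild-type median.

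Mustn1 (1427201_at) had the largest fold of the 8 probe sets. It ranged from 2280 to 7181 in HSALR with a median of 2704, and from 616 to 1532 in wild type with a median of 912. The 10 HSALR samples all exceeded the 9 wild-type ones, as deposited and after quantile normalization. As deposited this was so for 0.36% of tested probe sets (81), and the share after quantile normalization was not computed. The mean was 3284 ± 1488 in the HSALR group and 995 ± 316 in the wild-type group (SD, n = 10 and 9), a log2 fold of 1.67 ± 0.20 (SE) or 3.18-fold, above the fold of 99.9% of tested probe sets. The large SD in HSALR came with replicate 3 at 7181, the next sample being at 3839. Without replicate 3 the log2 fold was 1.53, and without replicates 9 and 10, at 2628 and 2370, it was 1.74.

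**Figure D1:**
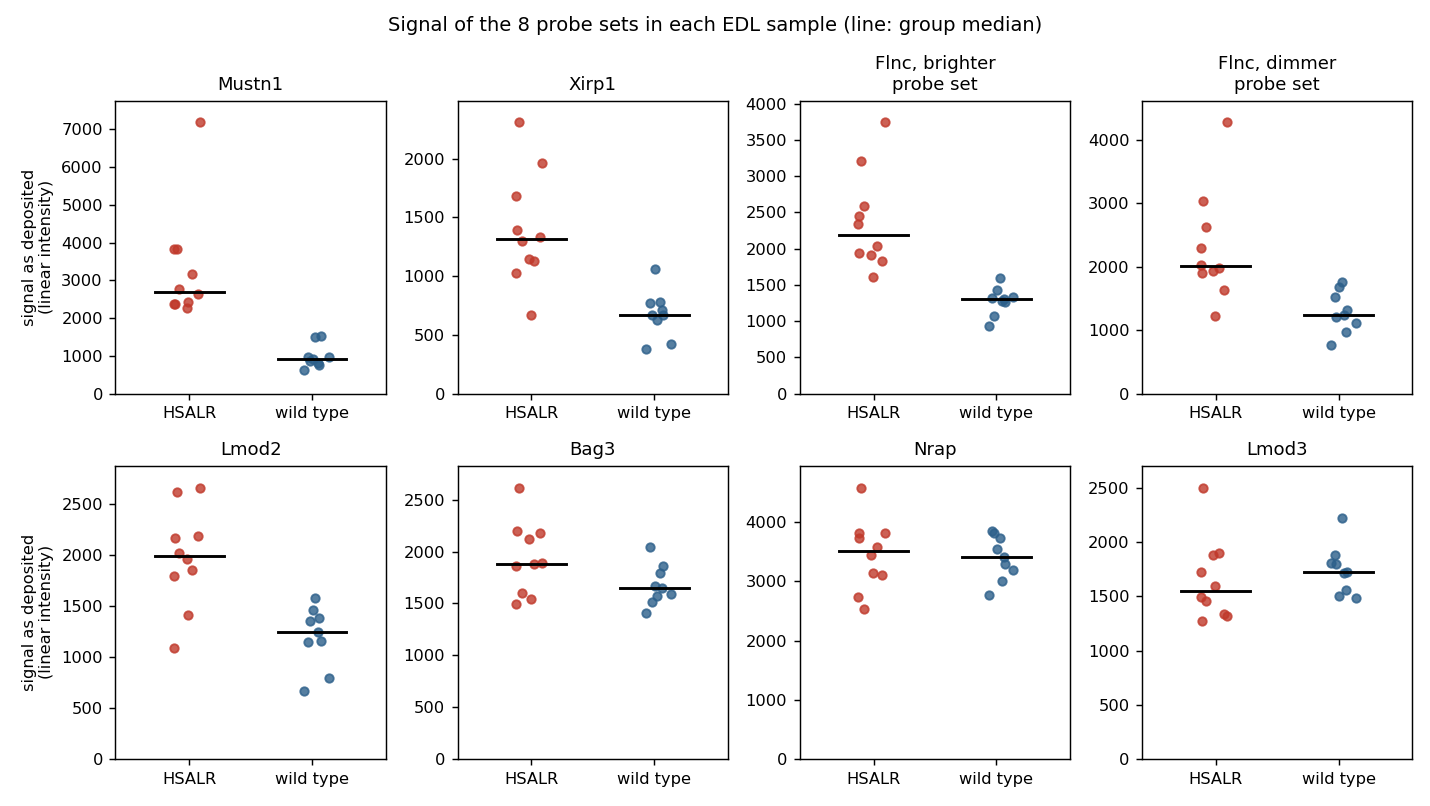
Deposited signal (linear intensity, vertical axis from 0) of the 8 probe sets in each EDL sample, with HSALR samples left in red, wild-type samples right in blue and a line at each group's median. Every HSALR point lies above every wild-type point for Mustn1 and the brighter Flnc probe set, while the groups overlap for the other 6. For Nrap and Lmod3 the HSALR points span the whole wild-type range.

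The order of the log2 folds was Mustn1, Xirp1, Flnc, Lmod2, Bag3, Nrap and Lmod3. Neighbours from Xirp1 to Lmod2 lay within about the sum of their standard errors, whereas Mustn1 stood above Xirp1 and Lmod2 above Bag3 by more than that sum. With a covariate for the 3′/5′ ratio the log2 folds were 1.75 for Mustn1, 0.96 for Xirp1, 0.80 and 0.75 for Flnc and 0.71 for Lmod2. These folds, and those without the replicates rich in macrophage and fibroblast markers, differed from the values first given by less than 1 SE for every one of the 8 probe sets.

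**Figure D2:**
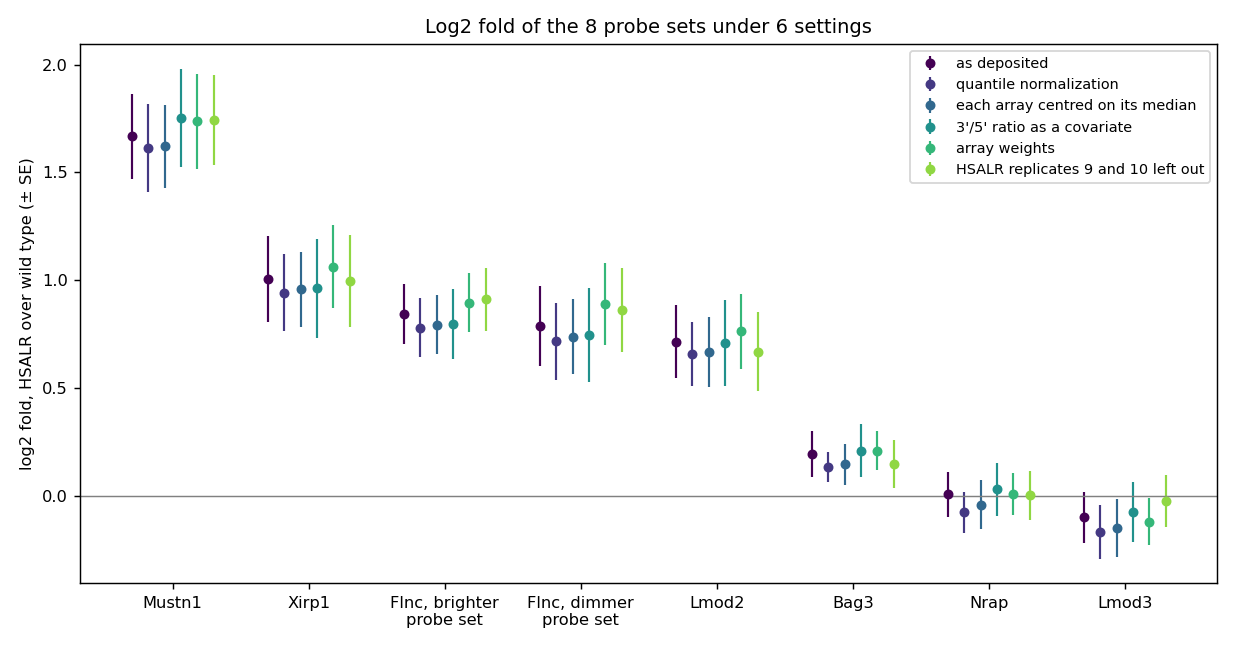
Log2 fold, HSALR over wild type, of the 8 probe sets under 6 settings, with bars of ± 1 SE. Points of Mustn1, Xirp1, Flnc, Lmod2 and Bag3 stay above 0 by more than 1 SE under all 6, though Bag3 is past the threshold in none. Those of Nrap lie on both sides of 0.

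Single samples were high or low across several of the genes. Within HSALR, replicates 3 and 8 were each the highest sample on 4 of the 8 probe sets, replicate 3 on Mustn1, Lmod2 and both Flnc probe sets and replicate 8 on Xirp1, Bag3, Nrap and Lmod3. Within wild type, replicate 7 was the lowest sample on 7 of the 8, all but Lmod3, and replicate 4 the highest on 4. Quantile normalization left wild-type replicate 7 lowest on 7 and HSALR replicate 3 highest on 4, while replicate 5 became the highest HSALR sample on 3 and replicate 8 on none. The place of HSALR replicate 8, whose tested probe sets had the highest median of all arrays, thus changed with the scaling, and those of HSALR replicate 3 and wild-type replicate 7 did not.

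How the genes varied together within each group was not used to choose them. Of 7 planned pairs the 2 with Xirp2 could not be computed, which left 10 relations over the pairs Flnc with Bag3, Flnc with Xirp1, Lmod2 with Lmod3, Xirp1 with Nrap and Bag3 with Mustn1. On quantile-normalized log2 signal, 0 of the 10 passed after Benjamini-Hochberg adjustment, with 1 at an unadjusted p under 0.05, and 0 passed under 5 other settings. That relation was Flnc with Xirp1 in HSALR, with Pearson r = 0.71 (n = 10, permutation p = 0.025, adjusted p = 0.25, 2-sided) and Spearman rho = 0.66 (permutation p = 0.0436, adjusted p = 0.436). Its r was 0.66 without replicates 3 and 9, which lay farthest from the median of Flnc. In wild type the same pair gave r = 0.53 and rho = 0.38 (n = 9, exact permutation p = 0.143 and 0.312, adjusted p = 0.476 and 0.819). On the scaling as deposited, r in HSALR was 0.78 (n = 10, permutation p = 0.00816, adjusted p = 0.0816) but rho was 0.58 (permutation p = 0.0879, adjusted p = 0.788), and r was 0.52 without replicates 3 and 8. Without replicates 9 and 10, on quantile-normalized values, r was 0.76 (n = 8, exact permutation p = 0.0283, adjusted p = 0.283) and rho 0.71 (exact permutation p = 0.0576, adjusted p = 0.576).

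The other pairs had no unadjusted p under 0.05 on quantile-normalized values. Flnc with Bag3 gave r = -0.06 in HSALR (n = 10, permutation p = 0.867) and r = 0.28 in wild type (n = 9, exact permutation p = 0.468). With each array centred on its median, Flnc and Bag3 in wild type gave rho = 0.72 (n = 9, exact permutation p = 0.0369, adjusted p = 0.252) against rho = 0.30 on quantile-normalized values. Lmod2 with Lmod3 gave r = -0.23 in HSALR (n = 10, permutation p = 0.533) and r = 0.30 in wild type (n = 9, exact permutation p = 0.426). Xirp1 with Nrap gave r = 0.07 in HSALR (n = 10, permutation p = 0.839) and r = 0.60 in wild type (n = 9, exact permutation p = 0.0962). That wild-type value rested on wild-type replicates 6 and 7, without which r was -0.02. Bag3 with Mustn1 gave r = -0.25 in HSALR (n = 10, permutation p = 0.467) and r = 0.42 in wild type (n = 9, exact permutation p = 0.264). Without the 2 samples farthest from the median of Bag3 these values were -0.53 in HSALR and 0.06 in wild type. The adjusted p of Pearson's r in these 8 relations was between 0.476 and 0.867. Spearman's rho lay between -0.32 and 0.37 (adjusted permutation p from 0.819 to 0.94).

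**Figure D3:**
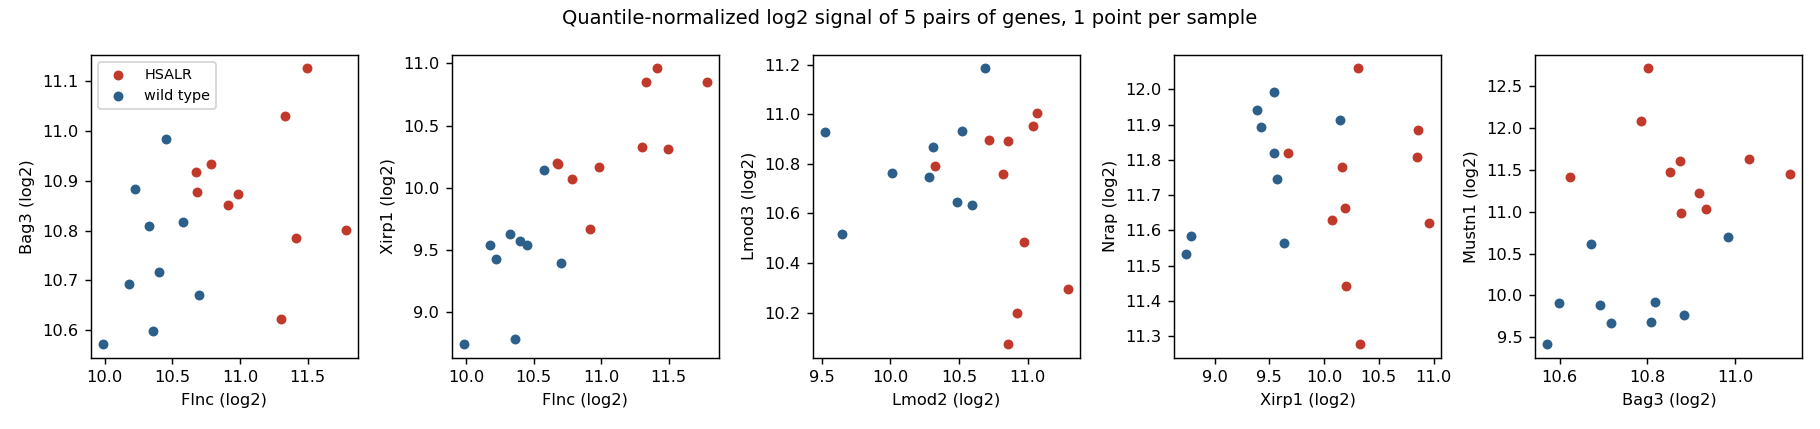
Quantile-normalized log2 signal of the 5 pairs of genes, 1 point per sample, HSALR in red and wild type in blue. Flnc and Xirp1 lie along a rising band within HSALR (r = 0.71), and the other pairs form scattered clouds within HSALR, with r between -0.25 and 0.07.

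As a description over all 19 samples, each gene's deviations from its group mean were set against the mean deviation of the other 6 genes. The correlation was highest for Nrap (r = 0.66) and Flnc (0.64), then Xirp1 (0.54), Mustn1 (0.54), Lmod2 (0.52) and Bag3 (0.36), and lowest for Lmod3 (0.26). Without HSALR replicates 9 and 10 it was 0.67 for Nrap, 0.53 for Flnc and 0.07 for Lmod3. Nrap, whose group means were nearly equal, thus had a pooled correlation close to that of Flnc. Wild-type replicate 7, the lowest wild-type sample on all but Lmod3, was kept in these values, and they were not computed without it. For Xirp1 with Nrap alone, r was 0.07 in HSALR. In wild type that pair fell from 0.60 to -0.02 without replicates 6 and 7. All of these values come from the same arrays.

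The genes whose within-group deviations were most like the mean of the 7 were sought among 11526 other genes, over the same 19 samples. They were Tnfrsf12a, the receptor of the cytokine TWEAK (r = 0.81), Csrp3, the muscle LIM protein of the Z-disc (0.80), the small heat shock proteins Hspb7 (0.78) and Hspb1 (0.77), the RNA helicase Ddx56 (0.77) and Hsph1, a chaperone of the Hsp110 family (0.74). Without HSALR replicates 9 and 10 the first 3 had ranks 1, 3 and 2 (r = 0.81, 0.76 and 0.76), while Ddx56 was at rank 10 and Hsph1 at rank 28. This repeat used 17 of the same 19 samples, so it is not independent. How high r would reach among 11526 unrelated genes was not computed. Between the groups, which this likeness did not use, Tnfrsf12a was higher in HSALR (log2 fold 1.76 ± 0.26 (SE), limma adjusted p = 0.000145). Hspb7 was higher as well (1.39 ± 0.18, limma adjusted p = 4.07e-05). Ddx56 (0.35 ± 0.11, limma adjusted p = 0.062) and Hsph1 (-0.08 ± 0.14, limma adjusted p = 0.786) did not pass. The likeness within groups therefore went with a difference between groups for some of these genes and not for others.

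Other genes of the same structures were counted from 5 lists, 1 probe set per gene (the brightest), against a background of 5.42% of 11533 genes past the threshold, 3.11% higher and 2.31% lower. The lists were chosen with earlier results of these data known, so their counts are a description. After quantile normalization 15.5% passed, 6.96% higher and 8.51% lower. Without HSALR replicates 9 and 10 it was 3.95%, 2.09% higher and 1.86% lower, and with array weights 13.6%, 10.8% higher and 2.71% lower. The median log2 fold over all genes was 0.05, and -0.01 after quantile normalization. Of 25 Z-disc genes listed 23 were tested, and 2 rose (Csrp3 and Actn2) and 1 fell (Pdlim7), with a median log2 fold of 0.01. After quantile normalization 3 were higher and 6 lower, with a median of -0.05, so the balance of this list turned with the scaling.

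Csrp3 had 2944, 4801 and 10877 at the lowest, median and highest HSALR sample, against 643, 1396 and 2606 in wild type. The groups did not overlap, as for 0.36% of tested probe sets in this direction. The log2 fold was 1.78 ± 0.25 (SE, n = 10 against 9, limma adjusted p = 7.56e-05). Pdlim7, a PDZ and LIM domain protein of the Z-disc, moved the other way, with 1269, 1686 and 2606 in HSALR against 3452, 3561 and 3947 in wild type. Every HSALR sample lay below every wild-type sample, as for 0.289% of tested probe sets, and the log2 fold was -1.05 ± 0.12 (SE, limma adjusted p = 5.98e-06). Its dimmer probe sets gave -0.32 ± 0.15 and -0.17 ± 0.10 on the log2 scale (limma adjusted p = 0.233 and 0.338), so the probe sets of Pdlim7 disagreed in size. Actn2, an alpha-actinin that crosslinks thin filaments in the Z-disc, averaged 7214 ± 845 in the HSALR group and 5579 ± 394 in the wild-type group (SD, n = 10 and 9) (log2 fold 0.36 ± 0.08, limma adjusted p = 0.0098). Actn3, the fast-fibre alpha-actinin, averaged 9002 ± 939 in HSALR and 10184 ± 583 in wild type, with a log2 fold of -0.18 ± 0.08 that did not pass (limma adjusted p = 0.189) but did after quantile normalization (-0.23, limma adjusted p = 0.0036). The log2 fold of Tcap (telethonin) was -0.01 ± 0.07 with a limma adjusted p of 0.976. Without HSALR replicates 9 and 10 the log2 folds were 1.91 for Csrp3, -0.99 for Pdlim7 and 0.37 for Actn2, and all 3 still passed in limma (adjusted p = 5.72e-05, 2.61e-05 and 0.0185).

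Of 24 thin filament genes listed 23 were tested, and 2 rose (Tmod2 and Klhl41) and 0 fell, with a median log2 fold of 0.00, and 2 were higher and 1 lower after quantile normalization. Klhl41, a kelch protein that stabilises nebulin, averaged 4619 ± 587 in the HSALR group and 3577 ± 382 in the wild-type group (SD, n = 10 and 9) (log2 fold 0.36 ± 0.09, limma adjusted p = 0.0183), and without HSALR replicates 9 and 10 the fold was 0.38 (limma adjusted p = 0.0366). For nebulin itself (Neb) the log2 fold was 0.03 ± 0.07, with a limma adjusted p of 0.841. Tmod2, a tropomodulin known mainly from neurons, was dim at 111 ± 28.4 in HSALR and 73.9 ± 15.1 in wild type, with a log2 fold of 0.48 ± 0.13 (limma adjusted p = 0.0308, lost on leaving out any of 9 samples, and 0.0813 without HSALR replicates 9 and 10). Its other probe sets were all under the filter, with smaller log2 folds of both signs, from -0.16 to 0.18. The muscle tropomodulins did not pass on the scaling as deposited. Tmod1 was at -0.16 ± 0.11 on the log2 scale (limma adjusted p = 0.415). Tmod4 was at -0.11 ± 0.09 (0.518) and passed after quantile normalization (-0.21, limma adjusted p = 0.0231). Among relatives of the 8 genes, the smooth-muscle leiomodin Lmod1 had -0.49 ± 0.21 (limma adjusted p = 0.196), and filamin A (Flna) was at 0.16 ± 0.24 (0.758). The fold of Flna turned to -0.12 without HSALR replicates 9 and 10 and was 0.47 with a covariate for the 3′/5′ ratio, not past the threshold in either. Of the 13 relatives tested 1 rose (Tmod2) and 1 fell (Bag2), and on the scaling as deposited 0 of each passed without HSALR replicates 9 and 10. After quantile normalization Tmod2 and Bag2 passed with all samples (limma adjusted p = 0.0028 and 0.0016) and also without HSALR replicates 9 and 10.

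Of 21 genes of chaperone-assisted autophagy listed 20 were tested, and 3 rose (Cryab, Hspb1 and Hspb8, all small heat shock proteins) and 1 fell (Bag2, another BAG-domain co-chaperone). The median log2 fold was 0.05, and after quantile normalization 4 were higher and 2 lower. Cryab averaged 11239 ± 1661 in the HSALR group and 8664 ± 554 in the wild-type group (SD, n = 10 and 9) (log2 fold 0.36 ± 0.09, limma adjusted p = 0.0155). Hspb1 averaged 6611 ± 1345 in HSALR and 4871 ± 582 in wild type (0.42 ± 0.11, limma adjusted p = 0.0254), a call lost without wild-type replicate 6, 7 or 9 (0.0517, 0.0566 and 0.053), with the covariate for the 3′/5′ ratio (0.0508) and with no filter (0.0501). Its dimmer probe set was at 0.72 ± 0.14 (limma adjusted p = 0.0021). Hspb8, the direct partner of Bag3, averaged 4610 ± 890 in HSALR and 3541 ± 273 in wild type, with a log2 fold of 0.36 ± 0.10 (limma adjusted p = 0.0456). Its call was lost on leaving out any of 17 of the 19 samples (limma adjusted p 0.0525 to 0.083 in those 17), without HSALR replicates 9 and 10 (0.0702) and with the covariate (0.0886). After quantile normalization Hspb8 passed with all samples (limma adjusted p = 0.0257) and also without HSALR replicates 9 and 10. Its dimmer probe sets were at 0.29 ± 0.13 and 0.36 ± 0.28 and did not pass (limma adjusted p = 0.191 and 0.501). Bag2 averaged 416 ± 72.0 in HSALR and 538 ± 81.2 in wild type, with a log2 fold of -0.36 ± 0.11 (limma adjusted p = 0.0463, lost on leaving out any of 15 samples, with the covariate (0.0862) and without HSALR replicates 9 and 10 (0.104)). It passed after quantile normalization, as given above. Synpo2, which links this pathway to the autophagosome, was at -0.00 ± 0.10 on the log2 scale, with a limma adjusted p of 0.987, and its dimmer tested probe sets had opposite signs, at 0.29 ± 0.14 and -0.27 ± 0.17 (limma adjusted p = 0.256 and 0.379). Stub1, its ubiquitin ligase, had 0.08 ± 0.09 (limma adjusted p = 0.656) on the brightest probe set and 0.47 ± 0.09 (0.00345) on a dimmer one, so its probe sets disagreed. Without HSALR replicates 9 and 10 the log2 folds were 0.42 for Cryab and 0.47 for Hspb1, both still past the threshold in limma (adjusted p = 0.00801 and 0.0285).

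Of 18 regulators tested (serum response factor with its actin-sensing cofactors, and the MEF2, TEAD, YAP and AP-1 factors), 0 passed in limma in either direction. At an unadjusted p under 0.05, 3 were higher and 0 lower, and 0 passed after quantile normalization. The log2 fold of Srf was -0.09 ± 0.11 with a limma adjusted p of 0.682. The share past the threshold over all genes was 5.42%, so a list of this size would hold few calls at that background. Activity of the factors was not measured.

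**Figure D4:**
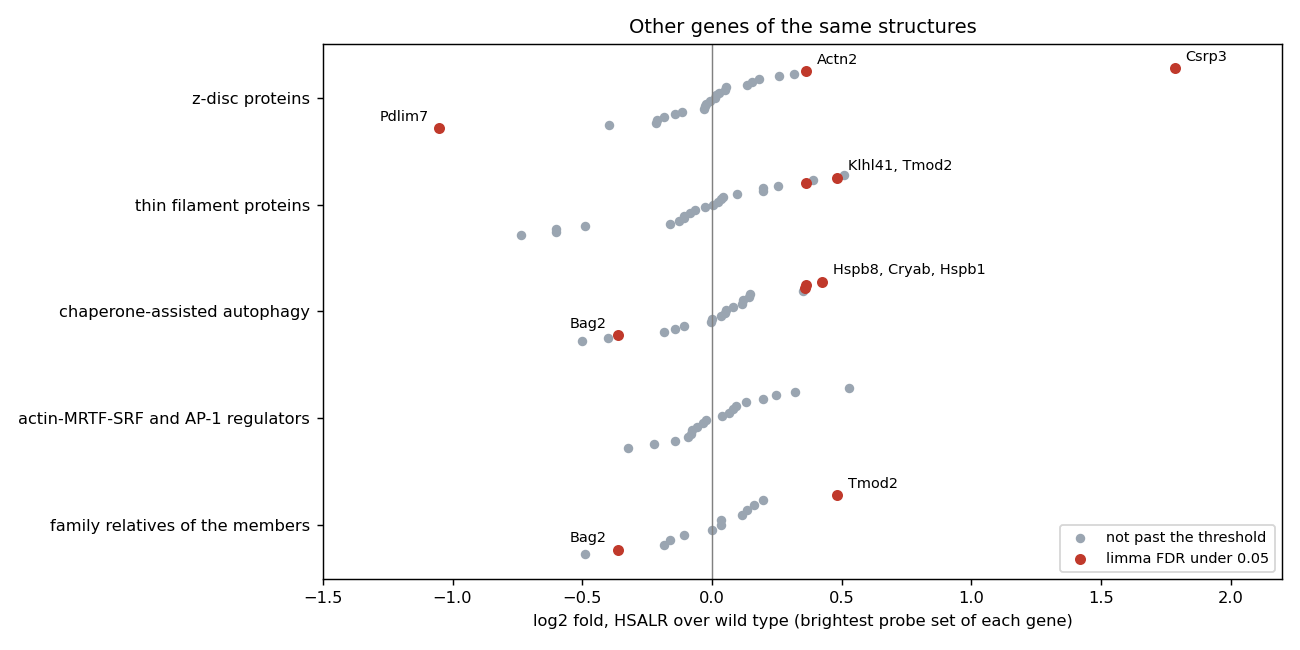
Log2 fold, HSALR over wild type, of each tested gene of the 5 lists (brightest probe set), with genes past a false discovery rate of 0.05 in limma in red and named. Csrp3 at 1.78 and Pdlim7 at -1.05 lie farthest from 0, and the regulators have no red point.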

How the data were processed

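Biotin-labelled RNA of 10 HSALR and 9 wild-type EDL samples was measured on 1-colour Affymetrix arrays, per the labels' protocols. For each array the authors deposited signal intensities on a linear scale for 45101 probe sets. The submitters' processing notes list GCOS 1.4, and neither the algorithm nor the scaling target is stated in the labels. Scaling was kept as deposited, so differences in overall brightness between arrays enter the values, and the number of arrays limits the precision. Values were used as log2(value + 16), which understates folds of dim genes. The 64 control probe sets and those with a mean log2 under the median (6.09) were left out, which left 22519. Symbols came from the platform annotation, and 34945 probe sets had 1 symbol. All columns of the table were used.

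The groups were compared in R 4.3.3 with limma 3.58.1 (lmFit, eBayes, 2-sided, Benjamini-Hochberg over all tested probe sets, false discovery rate 0.05), with no covariate, and the fit was checked on simulated data. Permutation tests were written in Python 3.11.15 (100000 resamples for 10 samples, all 362880 orders for 9). Correlations used scipy 1.17.1, and figures matplotlib 3.10.9. The members, gene lists and tests were chosen with earlier results of these data known. Named genes were all members, 13 list genes whatever their result, up to 4 genes past the threshold per list, and the 6 with the most alike within-group pattern. Some listed genes are not reported here, and Nebl and Tead4 were under the filter. Alternatives were pseudocounts of 1 and 64, other filters, quantile normalization, median centring, a replicate block, array weights, a covariate for the 3′/5′ ratio, and samples left out. The replicate numbers carry no stated meaning. Same-numbered samples did not deviate together (r from -0.24 to 0.13 over 9 pairs), so the numbers were not taken as pairs.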

Additional observations from a re-analysis of the deposited data

Results flagged for a closer look

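Mustn1 in HSALR replicate 3 had a log2 signal of 12.81 (signal 7181), set apart from the other 9 HSALR samples by a gap of 0.546 of the group's whole range. It was found by a test for 1 sample far from the rest of its group, run on 16 groups of member values, which chance alone meets in about 1 group of 20. Replicate 3 was also the highest HSALR sample on Lmod2 and both Flnc probe sets. Without it the log2 fold of Mustn1 was 1.53, against 1.67 with it.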

How the results depend on the processing

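The 5 member probe sets past the threshold, and the side of the threshold of all 8, were unchanged under 11 settings and in each of 19 fits without 1 sample. The counts of list genes moved more. Z-disc genes past the threshold were 3, against 9 after quantile normalization, 9 after it without HSALR replicates 9 and 10, and 5 with array weights. With the replicate block they were 2. Thin filament genes were 2, against 1 with no filter, with the replicate block or without HSALR replicates 9 and 10, and 4 with array weights. Chaperone genes were 4, against 2 with a pseudocount of 1, with the 3′/5′ covariate or without HSALR replicates 9 and 10, and 1 with no filter or with the replicate block. They were 6 after quantile normalization and 5 with array weights. Regulators were 0, against 1 with array weights. Family relatives were 2, against 0 with no filter or without HSALR replicates 9 and 10, and 1 with a pseudocount of 1, with only the 11260 brightest probe sets, with the replicate block or with the covariate. After quantile normalization the family count was 3. Leaving out 1 sample at a time gave 3 to 4 Z-disc, 1 to 3 thin filament, 1 to 5 chaperone and 0 to 2 family genes, 0 regulators and 5 members. The cause of these changes was not tested, though some settings differ in what they hold. The block and the fits without samples hold fewer samples. With only the brightest probe sets 10 family relatives were tested, and Tmod2 was not among them. With no filter the adjustment covered 45037 probe sets.

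The replicate block, which leaves out HSALR replicate 10, also ended the calls of Actn2 (limma adjusted p = 0.0563), Klhl41 (0.0569) and Cryab (0.0737). For 3 of the 9 numbers shared by the groups, the wild-type sample that deviated most like the HSALR sample bore the same number. In the other direction, from wild type to HSALR, this was so only for number 5. Of the named list genes under alternatives, 504 values kept their side of the threshold, 61 lost the call and 3 gained it. No called fold changed sign, while 5 uncalled ones did under some setting (Flna, Neb, Srf, Synpo2 and Tcap, 17 values in all), as did Nrap among the members. Over all tested probe sets the calls were 403 higher and 307 lower with the block, 1705 and 464 with the covariate, 2278 and 600 with array weights, 1051 and 1294 with centring on the median, 1561 and 506 without HSALR replicate 5, and 427 and 402 without HSALR replicates 9 and 10. Of the member pairs, 0 passed under any setting. The scaling by the authors is unknown, and dim genes such as Tmod2 and Lmod1 have the least signal over background.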
